A study of Arabidopsis thaliana with 22 samples.

Results

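The response of wild type Arabidopsis thaliana leaves to a foliar spray of abscisic acid (ABA) is described across the probe sets that the array's gene table names. The members are the 6 arrays whose labels give genotype WT, 3 sprayed with ABA and 3 mock-treated, out of 22 arrays in all. Wild type here is a Col-0 by Ler F1 hybrid, made as the control for mutants that carry both backgrounds, so it is not an inbred accession and carries no induced mutation. The other 16 arrays are of ost1-2 (4, in Ler), sal1-8 (6, called alx8 in the labels, in Col-0) and ost1-2 sal1-8 (6), again with and without ABA. They enter the fit only through the shared estimate of the spread, and a short comparison near the end. Rosettes received 400 µl of 20 µM ABA dissolved in ethanol, with 0.005% Sylwett, or an ethanol-only control solution. The labels give an age of 30 days and 45 min for the treatment, while their protocol text states a harvest after 2 h. The study's methods give 45 min, an age of 4 weeks and 1 leaf per sample. Arrays are called here by treatment and by the number in their title, mock 105, 114 and 130 and ABA 118, 126 and 134.

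ABA is a plant hormone that accumulates when water is short. Its receptors bind and block phosphatases that otherwise hold a small group of protein kinases inactive. The freed kinases act on ion channels, which closes stomata, and on transcription factors, which switch on genes for protective proteins such as dehydrins. In leaves the hormone is also known for slowing growth and for lowering transcripts of photosynthesis and chlorophyll synthesis. Of the genes listed for the receptors, phosphatases and kinases, 0 were among the probe sets tested, so none of them is described here.

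Levels are log2 fluorescence intensities, so a difference of 1 is a 2-fold change. Of 38408 probe sets the table names 17481, and the brightest of these, ranked by the highest mean of any of the 8 groups, were tested. Of the tested probe sets 13143 belong to a single gene, and 3701 named ones were left out as dim. A probe set was called when limma gave an adjusted p under 0.05 and the change exceeded 1.5-fold. Only 1544 of the single-gene probe sets carry a gene symbol, and the others are known by locus number.

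ABA raised 882 probe sets and lowered 778, together 1660 or 12.0% of those tested, with 6.40% raised and 5.65% lowered. The rises were the larger changes. The median change was 1.19 among raised and -0.91 among lowered probe sets, against -0.03 over all tested. A rise above 2-fold was seen for 557 probe sets, above 4-fold for 156, above 8-fold for 49 and above 16-fold for 14. Falls beyond the same limits numbered 293, 26, 6 and 1. In 842 of the raised probe sets the 3 ABA arrays were all higher than the 3 mock arrays, and in 731 of the lowered ones all were lower. Among all tested probe sets the ABA arrays lay apart upwards in 12.4% and downwards in 13.3%. At an unadjusted p under 0.05 there were 3650. A leaf holds many cell types, so fewer cells of a type and less RNA per cell cannot be told apart in any of these values.

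**Figure D1:**
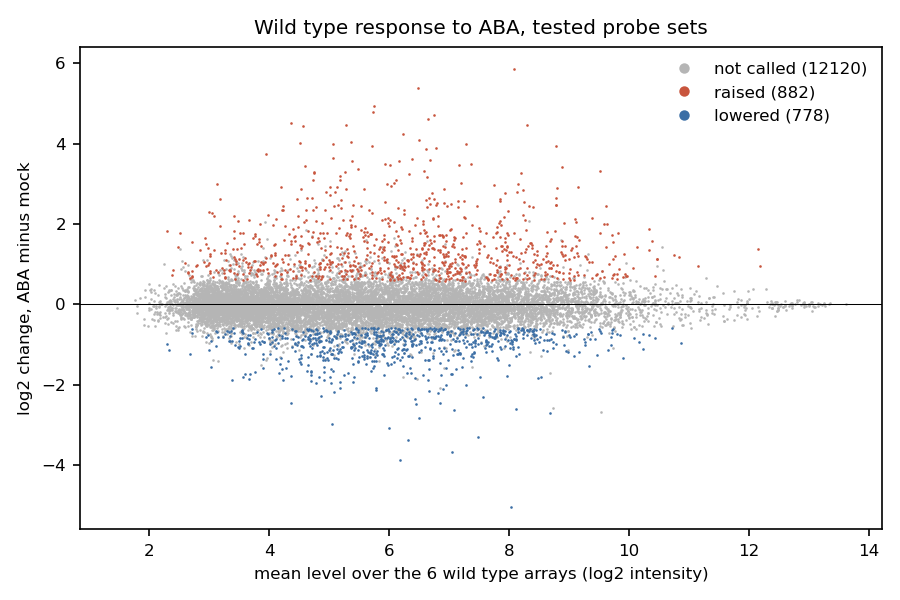
Each point is a probe set, placed by its mean level over the 6 wild type arrays (log2 intensity, horizontal) and its log2 change after ABA (vertical); colours mark the 882 raised, the 778 lowered and the uncalled probe sets. Rises reach beyond 5 on the log2 scale, and few falls go below -3.

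Calls were rarer among dim probe sets. With the tested probe sets ranked by level into 5 bins of 2756, the dimmest bin had 2.69% raised and 1.38% lowered. The brightest bin had 8.60% raised and 6.28% lowered. The highest shares fell between these, 9.0% raised in the bin next to the brightest and 8.67% lowered in the middle bin. The dimmest probe set tested had a highest group mean of 3.02. Of the raised probe sets 82 had a mock mean under this level, and of the lowered ones 34 had an ABA mean under it. These entered the test through a group in which they were brighter, and no detection call was used, so the sizes of their changes depend on values near the dim end.

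The 6 arrays were not equally far apart. The first principal component of the tested probe sets, with 52.7% of the variance, placed the mock arrays at -22.9 (105), -25.7 (114) and -52.9 (130). The ABA arrays lay at 54.4 (118), 27.0 (126) and 20.0 (134), so mock 130 and ABA 118 form the 2 ends. Without ABA 118 the count of calls was 1021 (594 raised and 427 lowered), and without mock 130 it was 1079 (608 and 471). With only the 6 wild type arrays in the fit it was 653, of which 637 were also called with all arrays. Of the calls with 5 wild type arrays, 930 of the 1021 and 993 of the 1079 were called in the same direction with all 6. The median level over all probe sets was highest in mock 130, at 4.83, and 4.60 to 4.71 in the other arrays. Whether the position of these arrays reflects the plants or the handling was not tested. The titles name no run. Title numbers were grouped into runs here, and adjoining numbers that differ in treatment were put in different runs. A run therefore holds a single treatment by this grouping. Each of the 6 wild type arrays lies in a different run, so a random block cannot separate a run effect from the treatment. With the run as a random block there were 1648 calls.

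Each array was then set against calls made without it. Calls made without ABA 118 had a median of 1.54 for raised and -1.11 for lowered probe sets when ABA 118 was compared with the mock mean, and 96.3% and 96.7% of them lay on the called side. For ABA 134, the ABA array nearest to mock on the first principal component, the medians were 0.865 and -0.636, and the shares 94.5% and 92.0%. Over all 6 arrays the shares ran from 94.5% to 98.5% for raised and from 92.0% to 98.9% for lowered probe sets. Of all tested probe sets, 45.8% to 51.4% lay above and 48.6% to 54.2% below in the same comparisons. The arrays of the other treatment, which form the other side of each comparison, had helped to make these calls. This by itself favours the called side, and the shares over all tested probe sets do not correct for it. How far an array would lie with its own treatment without this was therefore not tested.

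**Figure D2:**
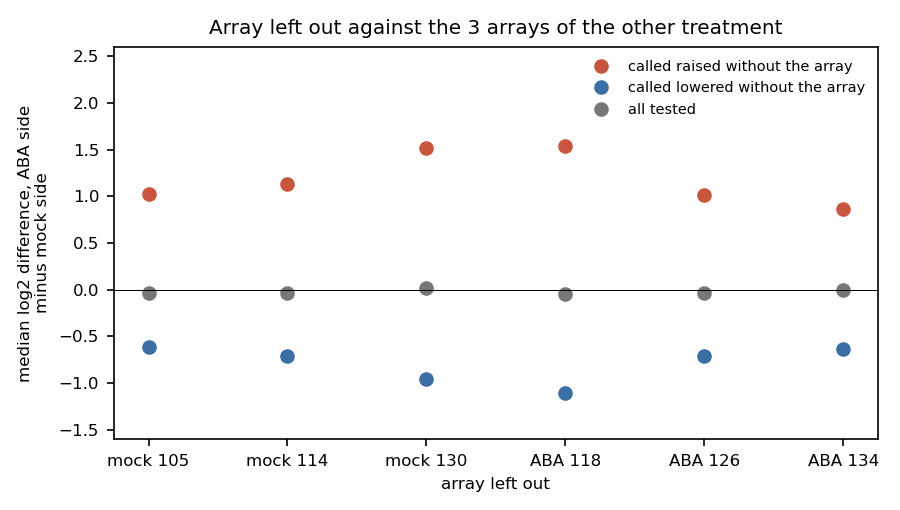
Each array (horizontal) was left out of the fit and then compared with the mean of the 3 arrays of the other treatment; points are medians of the log2 difference, ABA side minus mock side (vertical), over probe sets called raised, called lowered and all tested. Raised medians run from 0.865 to 1.54, lowered from -1.11 to -0.612, and those over all tested stay near 0.

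The largest rises were mostly in genes known only by locus number. AT2G35070, listed as a hypothetical protein, read 7.24, 5.69 and 2.54 in mock 105, 114 and 130 and 11.7, 10.6 and 10.8 in ABA 118, 126 and 134. Its rise of 5.86 (SE 0.79, adjusted p = 6.2e-05, limma, n = 3 and 3) rests on a mock group that itself spans more than 4 log2 units. AT2G41190 was steadier, with 3.60, 4.12 and 3.64 in mock and 9.70, 8.68 and 9.13 after ABA, a rise of 5.38 (SE 0.51, adjusted p = 1.8e-06). AT2G47780 had the lowest adjusted p of the 20 largest rises (4.4e-09), for a rise of 4.61 (SE 0.27). AT1G24580, a RING/U-box domain protein of the kind that attaches ubiquitin, went from 3.15 to 3.52 in mock to 7.39 to 9.08 after ABA (rise 4.79, SE 0.46, adjusted p = 2.1e-06). None of the ABA arrays overlapped the mock arrays in any of these genes, which is part of the rule that selected them.

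Genes of known function among the 20 largest rises included an enzyme of pathogen defence and a ubiquitin ligase. CHI, a chitinase that cleaves the chitin of fungal walls, read 4.62, 4.12 and 3.62 in mock and 8.53, 8.76 and 7.78 after ABA (rise 4.24, SE 0.68, adjusted p = 3.6e-04). PUB19, a U-box ubiquitin ligase, read 2.66, 2.83 and 2.06 in mock and 7.55, 6.17 and 5.85 after ABA (rise 4.01, SE 0.33, adjusted p = 5.2e-07), with a mock mean of 2.52 under the lowest level that admitted a probe set. The dehydrin LTI30 rose by 3.98 (SE 0.29, adjusted p = 8.9e-08). The others of the 20 were AT3G02480, AT3G03341, AT5G50360, AT1G16850, AT1G72760, AT4G12490, AT4G33467, AT5G15190, AT4G33150, AT1G70640, AT5G24080, AT2G28400 and AT4G30470, with rises from 3.86 to 4.92. Of these, AT5G50360 and AT4G12490 had mock means of 2.11 and 2.35, also under that level. AT1G70640 had widely spread mock arrays, at 7.0, 8.73 and 4.75 in mock and 10.8, 10.4 and 11 after ABA.

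**Figure D3:**
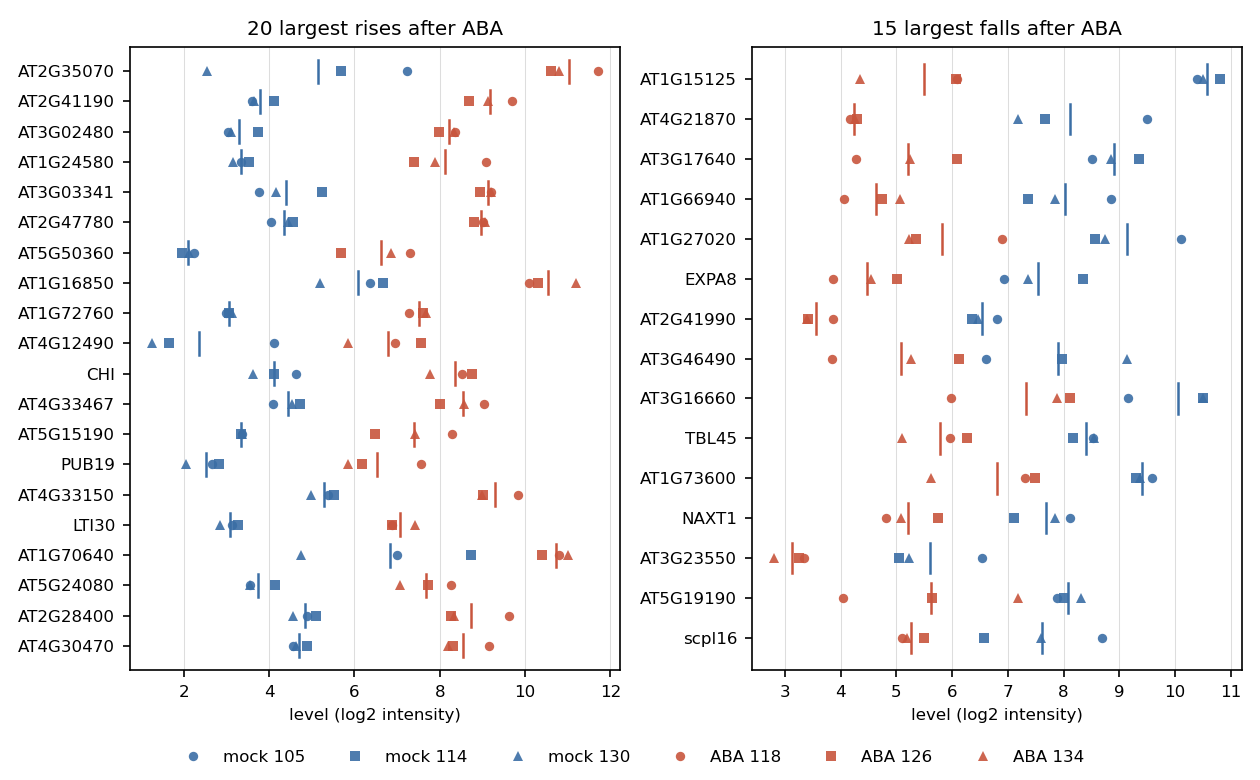
Levels (log2 intensity, horizontal) of the 20 genes with the largest rises and the 15 with the largest falls, one point per array, mock in blue and ABA in red, with a vertical bar at each group mean. The groups do not overlap in any row, by the rule that chose the genes, and the mock arrays of AT2G35070 spread from 2.54 to 7.24.

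The strongest decrease belonged to AT1G15125, which encodes a methyltransferase-domain protein. It read 10.4, 10.8 and 10.5 in mock and 6.09, 6.07 and 4.35 after ABA, a change of -5.06 (SE 0.54, adjusted p = 6.0e-06, limma, n = 3 and 3). AT3G17640, a leucine-rich repeat protein, went from 8.51, 9.35 and 8.85 to 4.28, 6.09 and 5.25 (change -3.69, SE 0.35, adjusted p = 1.8e-06). AT4G21870 changed by -3.87 (SE 0.57, adjusted p = 1.6e-04) and ended within a narrow range of 4.17 to 4.30. EXPA8, an expansin that loosens cell walls, went from 6.93, 8.34 and 7.36 to 3.87, 5.01 and 4.54 (change -3.07, SE 0.46, adjusted p = 2.0e-04). AT1G73600, a putative phosphoethanolamine N-methyltransferase, an enzyme of choline synthesis, changed by -2.60 (SE 0.42, adjusted p = 3.8e-04). TBL45, of a family that acetylates wall polymers, changed by -2.63 (SE 0.34, adjusted p = 4.0e-05). The remaining genes among the 15 changed by -2.35 to -3.39. Of these, AT3G46490 was called under 7 of 16 alternatives, with an adjusted p of up to 0.21, reached without ABA 118 and without mock 130. AT5G19190 was called under 14 of 16, with -1.66 (adjusted p = 0.077) without ABA 118 and an adjusted p of up to 0.092. The gene scpl16 lost its call without mock 105 (-1.82, adjusted p = 0.051).

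Among the brightest raised transcripts were 2 cold- and ABA-induced genes, COR15A, which encodes a chloroplast protein that protects membranes, and KIN2. KIN2 read 11, 11.8 and 11.6 in mock and 13.0, 12.7 and 12.7 after ABA (rise 1.38, SE 0.32, adjusted p = 0.0066). COR15A, already at 11.4 to 12.3 in mock, rose by 0.96 (SE 0.23, adjusted p = 0.0099). It lost its call without mock 130 (0.78, adjusted p = 0.064) and with only the wild type arrays (adjusted p = 0.1). RD2, first found as a drought-responsive transcript, rose by 0.95 (SE 0.23, adjusted p = 0.0093), and AT5G42050, with a domain named for development and cell death, by 1.18 (SE 0.16, adjusted p = 7.1e-05). The brightest lowered transcripts were PORB, AT5G52780, AT1G74470, AT3G13120, AT1G49750 and AT2G37660, with changes of -0.60 to -1.12. AT5G52780, a hypothetical protein, went from 10.6 to 10.9 in mock to 9.58 to 9.82 after ABA (change -1.12, SE 0.16, adjusted p = 9.5e-05).

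Most of the tested transcripts for chlorophyll and tetrapyrrole synthesis were lowered. Chlorophyll, heme and siroheme are made from glutamate by a shared chain of tetrapyrrole enzymes, most of them encoded in the nucleus and imported into plastids. Of 33 genes in a list made after the values were seen, 10 were tested. Of these 7 were lowered, 0 raised and 3 not called, with a median change of -0.80, where 5.65% of all tested probe sets were lowered and the median was -0.03. PORB, the light-dependent protochlorophyllide oxidoreductase, read 11.3, 11.3 and 11.5 in mock and 10.0, 10.6 and 10.5 after ABA (change -0.97, SE 0.16, adjusted p = 5.0e-04). CHLM, which methylates the magnesium porphyrin, read 9.81, 9.73 and 10.1 in mock and 8.87, 9.02 and 9.13 after ABA (change -0.87, SE 0.16, adjusted p = 9.5e-04). In both genes the groups lay apart, and both calls held under all 16 alternatives.

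Other steps of the chain were partly lowered. GSA1, which makes 5-aminolevulinic acid at the start of the chain, changed by -0.73 (SE 0.23, adjusted p = 0.039), with overlapping groups (8.46 to 9.57 in mock, 8.06 to 8.55 after ABA). HEME2, a uroporphyrinogen decarboxylase, changed by -1.07 (SE 0.25, adjusted p = 0.0080), and its paralogue HEME1 by -0.68 (adjusted p = 0.062, not called). AT1G74470, the geranylgeranyl reductase that makes the phytol tail, changed by -0.60 (SE 0.19, adjusted p = 0.047). It was called under 8 of 16 alternatives, with -0.32 (adjusted p = 0.29) without ABA 118. LIL3:1, which holds that reductase in the membrane, changed by -1.0 (SE 0.21, adjusted p = 0.0031). SIRB, which inserts iron to make siroheme, changed by -0.87 (SE 0.28, adjusted p = 0.044). HEMA2, a glutamyl-tRNA reductase, stayed at 4.45 to 4.82 (change 0.10, adjusted p = 0.78), and LIL3:2 changed by -0.45 (adjusted p = 0.095). The count of 7 fell to 4 without ABA 118, to 3 without mock 130 and to 2 with only the wild type arrays. The median was -0.70 without ABA 118 and -0.63 without mock 130.

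Nuclear genes for the thylakoid complexes were also partly lowered. Of 82 genes whose names mark them as subunits or assembly factors of the photosystems, the NDH complex and cytochrome b6f, 19 were tested, 8 lowered and 0 raised (median -0.56). LPA19, needed to build photosystem II, read 6.37, 6.56 and 6.41 in mock and 5.82, 5.37 and 5.10 after ABA (change -1.02, SE 0.20, adjusted p = 0.0021). PAM68 and LPA2, which also assist photosystem II, changed by -0.97 and -0.72. CCB3, which attaches heme to cytochrome b6, changed by -0.85 (SE 0.19, adjusted p = 0.0054). CRR42, NdhN, CRR21 and CRR22 serve the NDH complex of cyclic electron flow and changed by -1.05, -0.87, -0.78 and -0.65.

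The other 11 were not called. Among them were the subunits PSBW, PSAN, PSBY and NdhL, with changes of -0.04 to -0.21, and the assembly factors LPA1 (-0.13), CRR41 (-0.33) and PSB27 (-0.39). HCF101 (-0.58) and LPA66 (-0.56) had groups apart and an adjusted p of 0.037 by limma, and missed only the 1.5-fold limit. PGRL1B, a protein of cyclic electron flow, had the only positive change (0.45, adjusted p = 0.12). There were 6 lowered members without ABA 118, 6 without mock 130 and 2 with only the wild type arrays. Of 5 tested probe sets for plastid chaperones and translocon parts 3 were lowered, and 1 with only the wild type arrays. These were Cpn60beta2 (-1.81, adjusted p = 0.013), HSP93-III (-1.12, adjusted p = 0.0056) and 1 of 2 probe sets of Cpn60beta4 (-0.91, adjusted p = 0.0031, the other -0.64, adjusted p = 0.13). Cpn60beta2 read 7.50 in mock 130 but 5.09 and 5.18 in the other mock arrays, and it lost its call without mock 130 (-1.02, adjusted p = 0.059). It was called under 13 of 16 alternatives, with an adjusted p of up to 0.15.

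**Figure D4:**
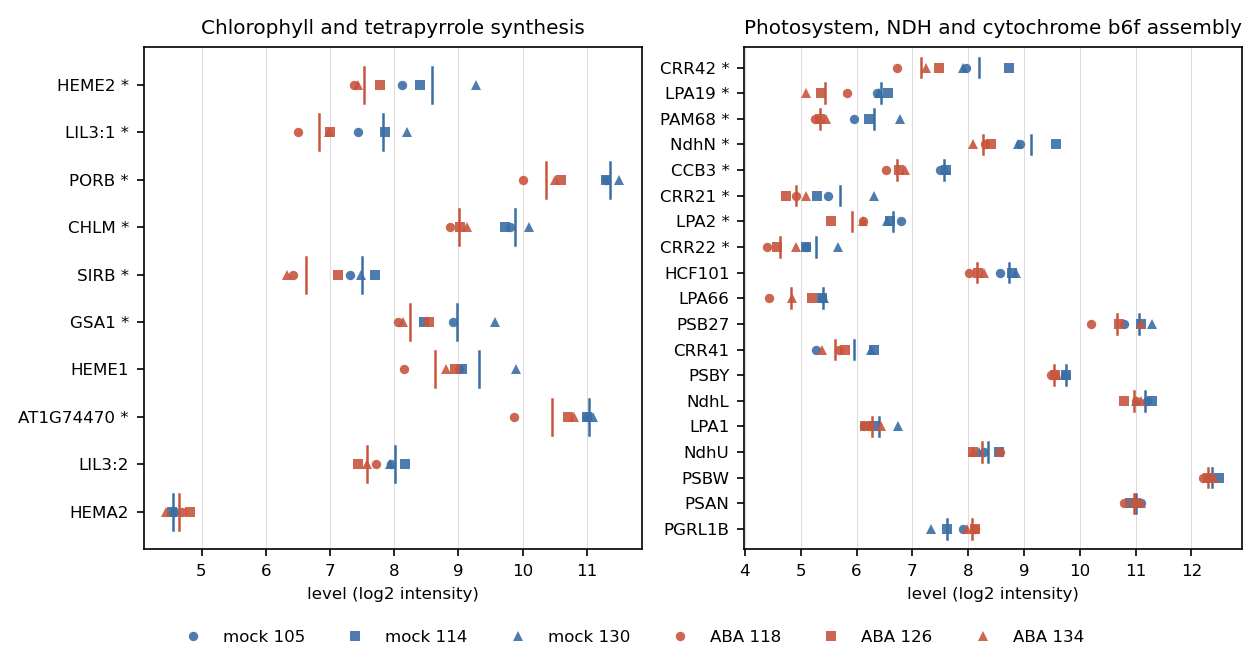
Levels (log2 intensity, horizontal) of the tested genes for chlorophyll and tetrapyrrole synthesis (left) and for the photosystems, NDH and cytochrome b6f (right), one point per array with a bar at each group mean; an asterisk marks a call. The 7 and 8 called genes have their ABA mean below their mock mean, and in the rows of PSBW and PSAN the mock and ABA points overlap.

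Genes encoded in the organelles themselves gave 0 calls with limma. Of 63 plastid-encoded genes, at mean levels of 10.1 to 13.6, changes ran from -0.61 for rps16 to 0.40 for psbN, with a median of -0.02 and a lowest adjusted p of 0.077. At an unadjusted p under 0.05 there were 4, and 1 was called lowered without mock 105. The 27 probe sets of mitochondria-encoded genes ran from -0.56 to 0.24 (median -0.02), with 2 at an unadjusted p under 0.05. The lowest adjusted p was 0.030, for a probe set of nad1 whose change of -0.56 was under 1.5-fold, and 1 probe set was called lowered without mock 130 and 1 without ABA 134.

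Several enzymes that break down lysine and branched-chain amino acids were raised. These amino acids can feed electrons to the mitochondrial respiratory chain when carbohydrate is short. Of 9 tested genes of 19 listed after the values were seen, 4 were raised, 0 lowered and 5 not called (median 0.58). Over all tested probe sets 6.40% were raised. AT4G33150 encodes LKR/SDH, the bifunctional enzyme that opens lysine breakdown. It read 5.38, 5.51 and 4.99 in mock and 9.84, 9.02 and 9.0 after ABA (rise 4.00, SE 0.56, adjusted p = 9.0e-05). ALDH7B4, an aldehyde dehydrogenase that acts further along the same route, read 7.92, 8.24 and 7.43 in mock and 11.3, 11 and 11.2 after ABA (rise 3.32, SE 0.42, adjusted p = 3.7e-05). AT1G21400, the alpha subunit of a 2-oxoisovalerate dehydrogenase, the committed step of branched-chain breakdown, rose by 2.57 (SE 0.28, adjusted p = 7.5e-06). In all 3 the groups lay far apart and the calls held under every alternative.

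ETFALPHA, which passes electrons from these pathways to the respiratory chain, rose by 0.85 (SE 0.21, adjusted p = 0.010). It lost its call without mock 130 (0.66, adjusted p = 0.068) and with only the wild type arrays (adjusted p = 0.075). ALDH6B2, AT2G26800, MCCB and D2HGDH, members of the same routes, had changes of 0.51 to 0.58 and were not called, and ETFQO had -0.01. The mitochondrial NADH dehydrogenase NDB2, an alternative entry to the chain that pumps no protons, rose by 2.15 (SE 0.31, adjusted p = 1.1e-04). It is named because it carries a symbol and changed by more than 2, a choice made after its values were seen.

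Sugar transporters changed in both directions. For the counts of these and the lists below, the shares over all tested probe sets were 6.40% raised and 5.65% lowered. Of 14 tested probe sets of the SWEET, TMT, SFP, STP and SUC families 5 were raised and 1 lowered (median 0.18), with 3 raised without ABA 118 and 2 with only the wild type arrays. SWEET4, a plasma membrane sugar carrier, read 6.24, 6.55 and 7.18 in mock and 9.97, 9.27 and 9.73 after ABA (rise 3.0, SE 0.31, adjusted p = 4.0e-06). SAG29 (SWEET15), linked to leaf senescence, read 3.56, 4.03 and 3.19 in mock but 8.79, 7.88 and only 4.81 after ABA (rise 3.57, SE 0.76, adjusted p = 0.0040), so ABA 134 stood much closer to mock. Its call was lost with only the wild type arrays (adjusted p = 0.07). The tonoplast carriers TMT1 and TMT2, which load sugar into the vacuole, moved oppositely, by -0.83 (SE 0.15, adjusted p = 0.0015) and 0.87 (SE 0.17, adjusted p = 0.0019). SFP1 and SWEET13 rose by 1.58 and 1.04, and both lost their call without ABA 118 and without mock 130. They were called under 13 and 8 of 16 alternatives. SWEET11, a phloem-loading carrier at 10.4 to 11.5, changed by -0.38 (adjusted p = 0.35). AMY1, a starch-degrading alpha-amylase, rose by 2.4 (SE 0.58, adjusted p = 0.0096), and by 2.0 (adjusted p = 0.062) without ABA 118.

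The NRT1/PTR (NPF) family, transporters of nitrate, peptides, hormones and glucosinolates, had 7 raised and 2 lowered among 13 tested probe sets (median 0.79). AT1G72120 (NPF5.14) read 7.48, 7.33 and 6.54 in mock and 10.1, 9.45 and 9.10 after ABA (rise 2.44, SE 0.39, adjusted p = 3.6e-04). Its neighbour AT1G72125 rose by the same 2.44 (SE 0.46, adjusted p = 0.0015) from a lower level of 2.56 to 3.32. AT3G21670 (NPF6.4) also rose by 2.44 (SE 0.43, adjusted p = 8.2e-04), and AT2G26690 (NPF6.2) by 1.22 (SE 0.24, adjusted p = 0.0024) from about 10. Both probe sets of AT1G68570 (NPF3.1) were raised, by 1.46 and 0.79.

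The nitrate excretion transporter NAXT1 moved the other way, from 8.12, 7.11 and 7.84 to 4.81, 5.75 and 5.08 (change -2.48, SE 0.25, adjusted p = 3.4e-06), as did AT1G33440 (NPF4.4), by -1.70 (SE 0.37, adjusted p = 0.0046). GTR1, a glucosinolate transporter, rose by 1.02 (SE 0.27, adjusted p = 0.017), and its paralogue GTR2 had -0.55 (adjusted p = 0.13). The family's counts were 5 raised and 2 lowered both without ABA 118 and without mock 130.

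Cell wall genes split within families. Expansins had 3 raised and 2 lowered among 21 tested probe sets (median 0.12), and 5 raised without ABA 118. EXLA1 read 5.06, 5.26 and 5.99 in mock and 8.94, 8.97 and 8.82 after ABA (rise 3.47, SE 0.39, adjusted p = 8.4e-06). EXPA16 read 6.72, 5.24 and 7.75 in mock and 9.58, 9.73 and 10.2 after ABA (rise 3.26, SE 0.41, adjusted p = 3.3e-05). Set beside EXPA8 above and EXPA9 (-1.21, SE 0.30, adjusted p = 0.012), these are the opposite ends of the family. EXPA9 lost its call without mock 114 (-0.88, adjusted p = 0.065) and without mock 130 (-1.13, adjusted p = 0.051). The same held with only the wild type arrays (adjusted p = 0.11). Of 7 xyloglucan endotransglucosylases, which cut and rejoin wall polymers, XTH29 (1.59) and EXGT-A3 (1.1) were raised and 0 lowered, and both lost their call without ABA 118.

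Among 20 beta-glucosidases 5 were raised and 1 lowered (median 0.26), with 2 raised and 0 lowered without mock 130 or with only the wild type arrays, and 3 raised without ABA 134 or mock 114. BGLU47 rose by 1.53 (SE 0.29, adjusted p = 0.0016) and BGLU45, which releases lignin precursors, by 2.92 (SE 0.79, adjusted p = 0.019), the latter unevenly at 4.71, 5.46 and 6.81 after ABA and from a dim mock mean of 2.75. CCR2, a cinnamoyl-CoA reductase of the lignin route, rose by 2.34 (SE 0.35, adjusted p = 2.1e-04), and WSD1, a wax ester synthase of the cuticle, by 1.64 (SE 0.39, adjusted p = 0.0085). WSD1 was called under 12 of 16 alternatives, with an adjusted p of up to 0.096. Among its losses were those without ABA 118 (1.31, adjusted p = 0.061) and without mock 130 (1.14, adjusted p = 0.061).

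UDP-glycosyltransferases, which attach sugars to hormones and secondary metabolites, had 8 raised and 2 lowered among 47 probe sets (median 0.15), and 4 raised without mock 130. Over all tested probe sets 6.40% were raised and 5.65% lowered. UGT87A2 read 8.21, 8.48 and 8.22 in mock and 10.9, 10.7 and 9.77 after ABA (rise 2.16, SE 0.38, adjusted p = 9.0e-04). UGT72E1, which glucosylates lignin precursors, went down from 8.81, 8.45 and 7.60 to 6.33, 6.47 and 6.06 (change -2.0, SE 0.29, adjusted p = 1.2e-04). Probe sets disagreed for 2 genes. UGT76E12 had 2.55 (called) and 0.43 (not called), and UGT85A4 had -1.95 (called) and 0.00 (not called).

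Serine carboxypeptidase-like proteins had 1 raised and 5 lowered among 21 (median -0.14), with scpl16 lowest. This became 2 lowered without ABA 118, 2 without mock 130 and 1 with only the wild type arrays. Of 21 cytochrome P450 probe sets, oxygenases of secondary metabolism, 1 was raised and 1 lowered, and 0 were called without ABA 118 or without mock 130. The shares over all tested probe sets were 6.40% raised and 5.65% lowered.

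IQ-domain proteins bind calmodulin and are associated with microtubules. Of 17 tested, 6 were lowered and 0 raised, and 14 had a negative change (median -0.47). iqd21 went from 7.41, 7.41 and 7.96 to 5.04, 5.57 and 6.49 (change -1.89, SE 0.27, adjusted p = 1.1e-04). IQD28, IQD22, IQD19, IQD31 and IQD29 changed by -0.74 to -1.15. There were 3 lowered without ABA 118, 4 without mock 130 and 1 with only the wild type arrays. At the other end, IQD23 had 0.27 and was not called.

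In the ubiquitin and autophagy lists, also made after the values were seen, the called genes were raised ones, beside 6.40% raised over all tested. Of 8 U-box ligases PUB19 and PUB43 (1.19, SE 0.25, adjusted p = 0.0033) were raised, and of 15 ubiquitin-conjugating enzymes UBC32 and UBC33. UBC32, an enzyme of protein quality control at the endoplasmic reticulum, read 9.49, 9.49 and 9.24 in mock and 11.8, 10.9 and 11.1 after ABA (rise 1.87, SE 0.23, adjusted p = 2.5e-05). Of 12 ubiquitin-specific proteases, which remove ubiquitin, 0 were called with limma, with changes from -0.81 to 0.43 and a lowest adjusted p of 0.093 and 3 at an unadjusted p under 0.05, and 1 was lowered without mock 114. All 11 tested autophagy genes had a positive change (median 0.40), and 3 of them were raised. APG8A, ATG8H and ATG8G, small proteins that coat the autophagosome membrane, rose by 1.33, 1.30 and 0.77. The count was 0 without ABA 118, 0 with only the wild type arrays and 2 without mock 130. BETA-VPE, a vacuolar processing protease named after its values were seen, rose by 2.07 (SE 0.33, adjusted p = 2.9e-04).

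Transcription factors that the table names by family changed little as groups. Of 18 bZIP factors 3 were raised (median 0.20). BZIP24 read 6.28, 5.91 and 5.87 in mock and 7.47, 7.16 and 7.64 after ABA (rise 1.41, SE 0.21, adjusted p = 1.9e-04), and BZIP60, a regulator of the unfolded protein response, rose by 1.17 (SE 0.24, adjusted p = 0.0028). Of 7 WRKY factors, many of them regulators of defence, WRKY6 was raised (1.45, SE 0.32, adjusted p = 0.0050) and WRKY29 lowered (-1.17, SE 0.24, adjusted p = 0.0030). Of 31 AGAMOUS-like MADS-box factors, mostly flowering and seed regulators, 0 were called with limma, with a lowest adjusted p of 0.048 but no change past 1.5-fold at that p. There were 2 at an unadjusted p under 0.05, and 1 was called raised without mock 130. STZ (ZAT10), a zinc finger repressor induced by many stresses, rose by 1.84 (SE 0.43, adjusted p = 0.0078). It lost its call without ABA 118 (1.44, adjusted p = 0.059) and with only the wild type arrays (adjusted p = 0.062). ARR15, a cytokinin-induced response regulator, changed by -1.40 (SE 0.39, adjusted p = 0.023). It lost its call when mock 105, mock 130, ABA 118 or ABA 126 was left out, and with only the wild type arrays.

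Hormone and signal peptide genes added some further rises. WES1, a GH3 enzyme that joins amino acids to auxin, read 4.76, 4.83 and 5.21 in mock and 8.58, 7.93 and 8.24 after ABA (rise 3.32, SE 0.37, adjusted p = 9.9e-06). CLE44, the precursor of a peptide that keeps vascular stem cells dividing, rose by 1.29 (SE 0.18, adjusted p = 9.7e-05). Together with RALFL33 and RALFL32 it made up the 3 raised of 17 RALF-like and CLE genes, with 0 lowered. The count was 1 without mock 105, and 2 without ABA 126, without ABA 134 or with only the wild type arrays. JRG21, a jasmonate-regulated gene, also rose (2.8, SE 0.68, adjusted p = 0.0095). CHAT, which makes a leaf volatile, rose by 2.53 (SE 0.59, adjusted p = 0.0076) with mock 130 at 4.19 and the other mock arrays at 6.44 and 6.32. WES1, JRG21 and CHAT were named after their values were seen. PDF1.2 and SAG101, the only tested members of the jasmonate and immunity lists, were not called (-0.37, adjusted p = 0.85, and 0.08, adjusted p = 0.84). PDF1.2 read only 1.70 to 2.39 in the wild type arrays, under the lowest level that admitted a probe set. The defensin-like genes, 18 tested, gave 0 calls with limma, with 2 at an unadjusted p under 0.05. There was 1 lowered without mock 130, 1 lowered without mock 105 and 1 raised with only the wild type arrays. PDF1.4 had the highest change among them (1.69, adjusted p = 0.069, not called).

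**Figure D5:**
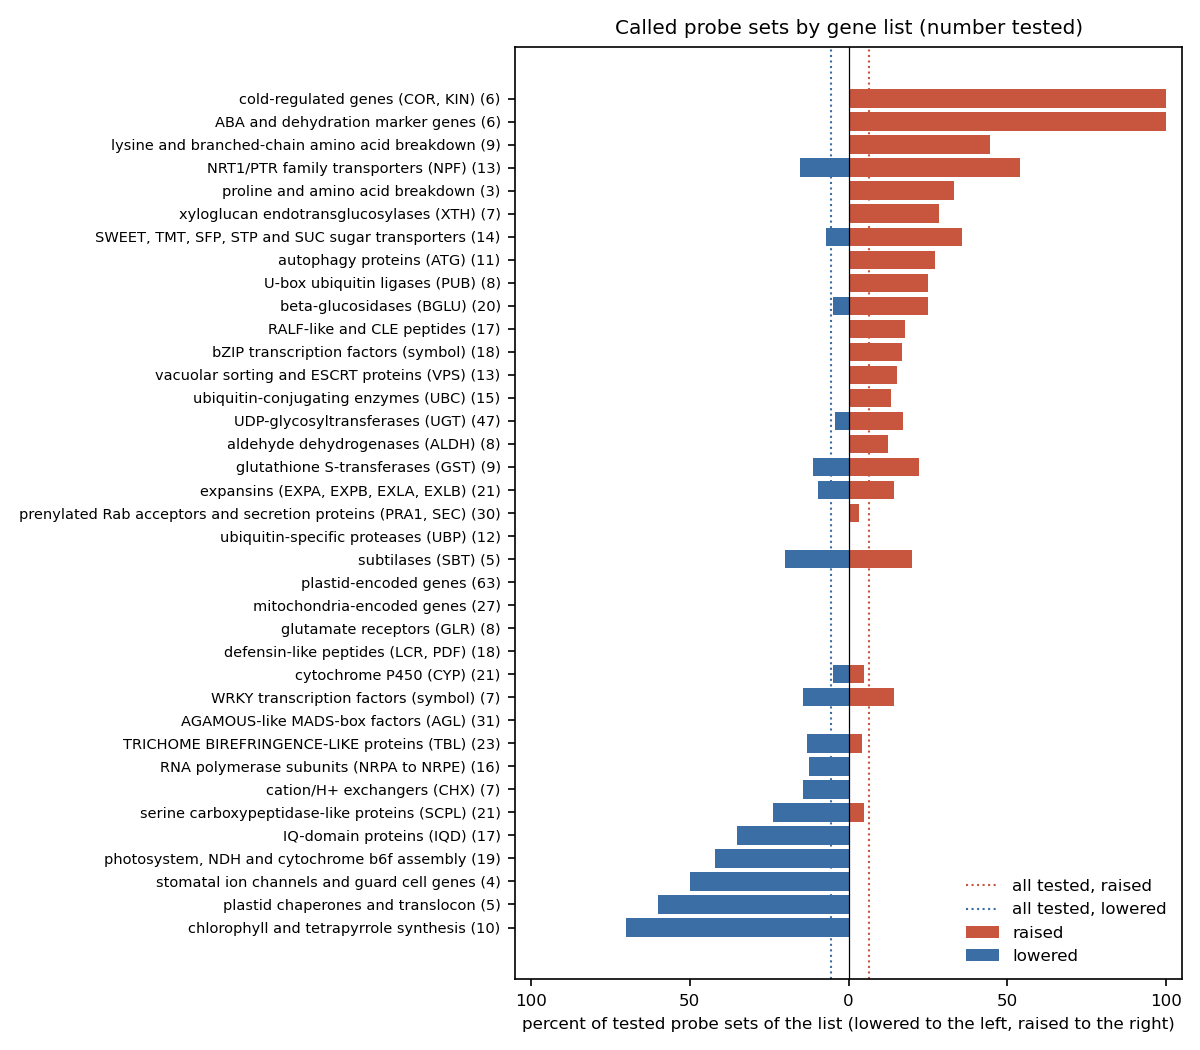
Share of tested probe sets raised (red, to the right) and lowered (blue, to the left) in each gene list with 3 or more tested members, whose number is in brackets, in percent; dotted lines mark 6.40% raised and 5.65% lowered over all tested. Chlorophyll synthesis, plastid chaperones, guard cell genes and thylakoid assembly lie at the lowered end, and ABA markers and cold-regulated genes, which share members, at the raised end.

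Guard cell genes were few in the table. Of 4 tested of 21 listed, 2 were lowered and 0 raised. FMA (FAMA), the factor that sets guard cell fate, read 6.82, 6.93 and 7.54 in mock and 5.58, 6.19 and 5.94 after ABA (change -1.19, SE 0.21, adjusted p = 7.5e-04). AT4G14480 (BLUS1), a kinase of blue light signalling in guard cells, went from 6.26, 6.31 and 6.21 to 5.01, 5.10 and 5.27 (change -1.13, SE 0.18, adjusted p = 3.5e-04). SPCH and MUTE, which act earlier in the stomatal lineage of young leaves, were not called (-1.50, adjusted p = 0.10, and -0.80, adjusted p = 0.16). Both were high in mock 130, SPCH at 6.67 against 3.62 and 3.54 in mock 105 and 114, and MUTE at 4.16 against 2.71 and 2.65. FAMA and Cpn60beta2 were highest in the same array. The leaf markers RCA and PRK, enzymes of carbon fixation, were at 11.6 to 12.1 and 8.62 to 9.80 in the 6 arrays and were not called (-0.31, adjusted p = 0.12, and -0.58, adjusted p = 0.11). Both had an unadjusted p under 0.05 by limma, and the ABA arrays of RCA all lay below its mock arrays. Of these 2 genes 1 was called lowered without ABA 134. Markers listed for seed, flower, vein and trichome had 0 tested members.

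Raised genes lay next to raised genes more often than their overall share. In the gene order of TAIR10.1 there were 6307 adjacent pairs of protein-coding genes with both members tested. In 57 both were raised, in 25 both lowered, and in 39 the members went opposite ways. Of the 865 neighbours of raised genes 13.2% were raised, against 6.76% of the genes in these pairs. Of the 715 neighbours of lowered genes 6.99% were lowered, against 5.60%. The pairs included the tandem copies KIN1 (2.93) and KIN2 (1.38), COR15B and COR15A, and AT1G72120 and AT1G72125, and also unlike neighbours such as AT1G21400 (2.57) and SKP2A (2.93), a ubiquitin ligase subunit. SCRL22 (2.08) stood next to AT4G33467 (4.09). How far shared probes or read-through between neighbours add to these counts was not tested, and no test of the excess was made.

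The response of the largest-changing genes was also set against the other genotypes. In the same fit 975 probe sets (7.08% of those tested) responded differently in wild type and in ost1-2, 38 (0.276%) in wild type and sal1-8, and 19 (0.138%) in wild type and ost1-2 sal1-8. With only the arrays of the 2 genotypes compared these counts were 241, 1 and 9, and leaving out a wild type array gave 489 to 1347, 23 to 58 and 17 to 50. The groups of ost1-2 hold 2 arrays each, and the 3 comparisons share the 6 wild type arrays. The genes were picked for a large change in wild type, which favours a larger value there, and the genotypes also differ in background. All 20 of the largest rises were larger than in ost1-2, by 3.32 to 8.27, where their median response was -0.12 against 4.34 in wild type. In sal1-8 the median response of the 20 was 2.29, and 5 differed from wild type. In ost1-2 sal1-8 it was 2.83, and 1 differed, AT1G72760, with 0.37 against 4.46. Of the 15 largest falls 9 differed from ost1-2, 3 from sal1-8 and 2 from ost1-2 sal1-8. NAXT1 was among those that differed in each comparison, which the shared arrays favour. It changed by -0.73 in ost1-2, -0.05 in sal1-8 and 0.02 in ost1-2 sal1-8, against -2.48 in wild type. AT4G21870, by contrast, changed by -4.32 in sal1-8 and -3.65 in ost1-2 sal1-8, and its differences from wild type were not called.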

How the data were processed

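Leaf RNA of 22 samples was measured on Affymetrix Arabidopsis Gene 1.0 ST arrays. The deposited values are log2 intensities, which the authors background corrected, quantile normalized and summarised with oligo 1.28.0 in R 3.1.0. Per the labels, limma 3.20.1, Affymetrix Power Tools and Partek were also used. The authors' filters for detection and cross-hybridization were not used here. All columns were mapped to samples by label, and 0 columns belonged to other samples.

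Here 1 model with a coefficient for each of 8 groups was fitted with limma 3.58.1 in R 4.3.3 (lmFit, contrasts, eBayes, Benjamini-Hochberg over the tested probe sets). The fit was tested on simulated data. As many of the brightest named probe sets were tested as the study's methods kept after their detection filter. Loci and symbols came from the RefSeq table of TAIR10.1, which matched 13096 of the 13143 tested single-gene probe sets. Biological replication follows the study's methods. The number of arrays limits the precision.

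Named genes were single-gene, called and without overlap between the 3 ABA and 3 mock arrays. They were the 20 highest and 15 lowest changes, the 6 brightest raised and 6 brightest lowered, and up to 4 called members per list. Called genes that carry a symbol and changed by more than 2 were added. The members and lists were chosen with earlier results of these data known. The lists for families and pathways other than ABA markers, guard cell genes, leaf markers and single stress genes were made after the values were seen, since the table holds no descriptions, and got no test. List members with overlapping groups or no call are given with their values. A planned count of promoter motifs was not run.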

Additional observations from a re-analysis of the deposited data

Results flagged for a closer look

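Among the 20 largest rises and 15 largest falls, 29 genes responded differently in wild type and ost1-2 by limma's test of the difference between responses. The genes were picked for a large change in the same wild type arrays, which favours a difference. In ost1-2 itself the responses of the 20 rises ran from -3.64 (AT4G12490) to 1.29 (AT2G47780), with -2.41 for AT2G35070. The differences, wild type minus ost1-2 on the log2 scale, were 8.27 for AT2G35070, 8.08 for AT4G12490, 5.83 for AT2G41190, 5.66 for CHI, 4.96 for AT1G24580, 4.95 for AT5G50360 and 4.58 for AT1G70640. They were 4.57 for AT3G02480, 4.48 for AT5G15190, 4.46 for AT1G72760, 4.27 for AT1G16850, 4.26 for AT2G28400, 4.25 for AT4G33467 and 4.16 for AT3G03341. They were 4.01 for AT5G24080, 3.98 for PUB19, 3.80 for AT4G33150, 3.55 for AT4G30470, 3.33 for AT2G47780 and 3.32 for LTI30. Among the falls they were -3.85 for AT3G16660, -3.71 for AT2G41990, -3.61 for AT5G19190, -3.24 for AT3G17640, -3.19 for EXPA8, -3.00 for TBL45, -2.90 for AT1G15125, -2.10 for AT1G66940 and -1.75 for NAXT1.

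Against sal1-8 the differences were 3.84 for AT1G72760, 3.68 for AT3G02480, 3.43 for AT1G24580, 2.14 for AT4G30470 and 1.97 for LTI30, and -4.07 for AT1G15125, -2.49 for AT3G17640 and -2.42 for NAXT1. Against ost1-2 sal1-8 they were 4.09 for AT1G72760, -2.97 for AT3G17640 and -2.50 for NAXT1. All 3 comparisons share the 6 wild type arrays, ost1-2 has 2 arrays per group, and Dixon's test for a single outlying array was not run on groups of 3 or fewer.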

How the results depend on the processing

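The count of 1660 calls was 653 (439 raised, 214 lowered) with only the 6 wild type arrays. Leaving out an array of either group gave 1021 to 1817 calls, with 594 to 965 raised and 427 to 852 lowered; the lowest counts came without ABA 118 and without mock 130. Under the other 9 alternatives the count was 1287 (array weights) to 1812 (no minimum fold), and no call made with all arrays was called the other way. Of 138 named genes 77 were called under every alternative that tested them, 0 changed direction, 52 lost their call with only the 6 wild type arrays, 40 without ABA 118 and 35 without mock 130. Why these calls were lost was not tested.

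With only the arrays of the 2 genotypes, differences from the wild type response numbered 241 for ost1-2, 1 for sal1-8 and 9 for ost1-2 sal1-8. Leaving out an array gave 489 to 1347, 23 to 58 and 17 to 50; the cause was not tested. No paired analysis was made, because the labels name no pairs and every title number occurs once. The numbers alone do not show whether runs that follow each other were paired. Promoter motifs were not run because no promoter sequences were at hand.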
